A study of Mus musculus with 9 samples.

Results

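Transcripts of skeletal muscle genes were a part of the RNA in these mandible libraries, though the study's methods do not name muscle as sampled. In these libraries 10 genes of myogenic control and of the nerve-muscle contact were followed. The members were *Pax7*, the myogenic factors *Myf5*, *Myod1*, *Myog* and *Myf6*, the fusion gene *Mymk*, the acetylcholine receptor subunit genes *Chrna1* and *Chrnd*, the receptor kinase gene *Musk*, and *Mstn*, which encodes myostatin. They were taken by gene symbol from a table of 27179 genes, and all 10 were in it. RNA came from whole mandibles, teeth included, of C57BL/6 mice aged 6 months, 5 of them WT and 4 labelled FcγRIIB-/-, a loss of the inhibitory Fc gamma receptor that serves as a model of lupus. The mutants were male by the study's methods and were obtained on the C57BL/6 background, and the sex of the WT controls is not spelled out there. WT replicates 1 to 5 and FcγRIIB-/- replicates 1 to 4 are each a library of its own, written as mice below, and since the labels do not say that each came from a separate animal, p-values measure the spread between these libraries. Depth lay between 21453880 and 28991631 counts per library.

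Muscle stem cells, called satellite cells, lie beside the muscle fiber and are marked by the transcription factor Pax7. When they are activated, the basic helix-loop-helix factors Myf5 and MyoD commit them to the muscle lineage, myogenin drives differentiation, and the membrane protein myomaker lets the cells fuse into fibers, while Myf6, also called MRF4, is the factor that stays abundant in mature fibers. At the neuromuscular junction the nerve releases agrin, which acts through the receptor Lrp4 and the kinase MuSK to cluster acetylcholine receptors, and myostatin, a secreted member of the TGF-beta family, limits muscle mass.

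The members are related in sequence to different degrees. The 4 myogenic factors share the DNA-binding basic helix-loop-helix region, and the ungapped stretch of 60 coding bases in which they are most alike is shown to make visible how close the 4 mRNAs are. The sequences were read from GENCODE transcripts of GRCm38 (mm10), all lie in exon 1, and capitals mark the 43 of 60 positions at which all 4 genes carry the same base.
Myf6, chr10:107494279-107494338, minus strand: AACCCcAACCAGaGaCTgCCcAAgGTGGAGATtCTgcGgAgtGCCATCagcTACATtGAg
Myf5, chr10:107485536-107485595, minus strand: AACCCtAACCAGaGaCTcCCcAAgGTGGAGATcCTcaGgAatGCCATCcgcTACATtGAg
Myod1, chr7:46377087-46377146, plus strand: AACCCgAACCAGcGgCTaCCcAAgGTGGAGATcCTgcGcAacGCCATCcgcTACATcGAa
Myog, chr1:134290386-134290445, plus strand: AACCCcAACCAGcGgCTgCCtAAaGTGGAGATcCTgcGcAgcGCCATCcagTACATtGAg
In this stretch *Myf5* and *Myf6* were the closest pair, with 53 of 60 bases identical, and *Myf5* and *Myog* the most distant, with 47. Over the whole mRNAs, the longest exact run shared by any pair was 26 bases, between *Myf5* and *Myod1*, which is shorter than the reads sequenced for this study. *Myf5* (chr10:107482908-107486927) and *Myf6* (chr10:107492848-107494723) are neighbors on the minus strand with 5920 bases between them. By RefSeq coordinates of GRCm38, *Mstn*, *Chrnd* and *Myog* lie on chromosome 1, with 36.7 Mb between *Myog* and *Fcgr2b*.

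Promoter sequence from RefSeq (GRCm38.p6) was at hand for 6 of the 10 members, *Pax7*, *Myf5*, *Myog*, *Chrna1*, *Musk* and *Mstn*. Myogenic factors bind the E-box CANNTG, which reads the same on both strands, and it occurred in 66.2% of 32851 promoters within the 250 bases before the start, with the form CAGCTG, a subset of it, in 13.0%. *Chrna1* and *Mstn* are shown because their upstream sequence held 3 and 4 such matches while, as given below, their mRNA levels did not pass the test. The share of all promoters with as many matches was not counted. In the lines below capitals mark each CANNTG.
Chrna1, chr2:73580339-73580588, minus strand: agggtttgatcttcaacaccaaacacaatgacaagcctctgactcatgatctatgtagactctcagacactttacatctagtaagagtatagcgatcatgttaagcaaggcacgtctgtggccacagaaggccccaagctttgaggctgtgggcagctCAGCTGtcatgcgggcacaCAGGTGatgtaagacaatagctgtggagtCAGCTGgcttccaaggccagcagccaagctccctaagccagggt
Mstn, chr1:53061390-53061639, plus strand: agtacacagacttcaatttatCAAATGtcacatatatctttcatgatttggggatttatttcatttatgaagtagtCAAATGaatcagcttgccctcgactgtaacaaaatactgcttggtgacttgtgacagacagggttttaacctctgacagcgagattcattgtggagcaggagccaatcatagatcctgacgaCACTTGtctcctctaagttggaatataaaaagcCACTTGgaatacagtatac
The *Chrna1* stretch held 3 matches, 2 of them CAGCTG, and the *Mstn* stretch held 4 matches with 0 of the form CAGCTG. *Musk*, whose level did not pass the test either, also had 3 matches, *Myog* had 2, and *Pax7* and *Myf5* had 0. The start is that of the promoter entry. By the gene coordinates used here, the *Pax7* and *Myf5* stretches and most of the *Musk* stretch lie inside the gene. Their matches were therefore not counted upstream of the gene coordinates. A match is a string of letters and was not tested as a binding site.

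Before the members, the libraries were examined for what the labels say. The targeted gene *Fcgr2b* did not show the loss that the genotype names, with a mean of 24.0 CPM (SD 8.28, n = 5) in WT and 27.8 CPM (SD 2.90, n = 4) under the FcγRIIB-/- label, so directions are given by label. Its log2 fold change was 0.21 (adjusted p = 0.442 by edgeR QL), and without WT replicate 2 it was 0.46 (adjusted p = 0.0131). CPM is a count scaled to the library size after TMM normalization, and edgeR QL is the quasi-likelihood test of edgeR with Benjamini-Hochberg adjustment over all genes tested. Of 10 osteoblast and osteocyte genes all 10 passed the filter on low counts, 5 were lower and 0 higher under the FcγRIIB-/- label, and the median log2 fold change was -0.31. The 40 sarcomere and calcium handling genes of skeletal muscle made up 1.44% to 3.35% of the counts in WT and 3.27% to 5.62% in the libraries labelled FcγRIIB-/-. Of these 40 muscle genes 19 passed the edgeR QL threshold of 0.05 as higher under the FcγRIIB-/- label and 21 did not pass, with a median log2 fold change of 0.71 against 0.01 over all 16329 genes tested. In bulk RNA, more muscle tissue in a sample and more mRNA per muscle fiber cannot be told apart. Erythroid genes (8 of 8) and neutrophil lineage genes (10 of 10) were lower in the same libraries, with medians of -3.80 and -3.05, and of 10 keratinized epithelium genes 8 were lower and 1, *Krt5*, was higher (0.39, adjusted p = 0.0356 by edgeR QL).

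Among the members *Myf6*, the factor of mature fibers, rose, and the others did not pass the test. *Myf6* was 2.06-fold higher in the libraries labelled FcγRIIB-/-. Its early relatives *Myod1* and *Myog* had positive log2 fold changes of 0.54 and 0.63 with intervals that reached below 0, and *Chrna1*, *Musk* and *Mstn* were within 0.05 of 0 on the log2 scale. Of the 10 members, 7 passed the filter on low counts, and *Pax7*, *Mymk* and *Chrnd* did not. Of these 7, edgeR QL called 1 higher (adjusted p threshold 0.05), where 14.0% of all 16329 genes tested were higher, and 0 lower, where 19.3% were, which is 1 of 7 called in either direction against 33.3% of all genes. At an unadjusted p under 0.05 there was also 1 higher and 0 lower member, and the Wald test of DESeq2 gave 1 higher and 0 lower member. The groups were without overlap in log2 CPM in 0 of the 7, against 29.6% of all genes tested. The median log2 fold change of the 7 was 0.26.

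The WT libraries, replicates 1 to 5, held 346, 167, 239, 363 and 316 reads of *Myf6* (gene identifier 17878), or 12.5, 6.70, 9.21, 13.3 and 12.3 CPM. In FcγRIIB-/- replicates 1 to 4 there were 640, 553, 727 and 203 reads, or 22.4, 25.6, 30.8 and 10.3 CPM. Replicates 1, 2 and 3 were thus above every WT mouse, and the share of all genes with as many mice above was not counted. Replicate 4 fell within the WT range, so the groups overlapped. The WT mean was 10.8 ± 2.79 CPM (SD, n = 5) and the mean under the FcγRIIB-/- label 22.3 ± 8.70 CPM (SD, n = 4), a log2 fold change of 1.04 (95% interval 0.41 to 1.67, standard error 0.29, adjusted p = 0.0187 by edgeR QL). With 1 mouse left out at a time the log2 fold change was between 0.85 and 1.28. Without FcγRIIB-/- replicate 3, which had the highest level, it was 0.85 and no longer passed (adjusted p = 0.0606 in the same test), and without replicate 4 it was 1.28 (adjusted p = 0.00351).

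**Figure D1:**
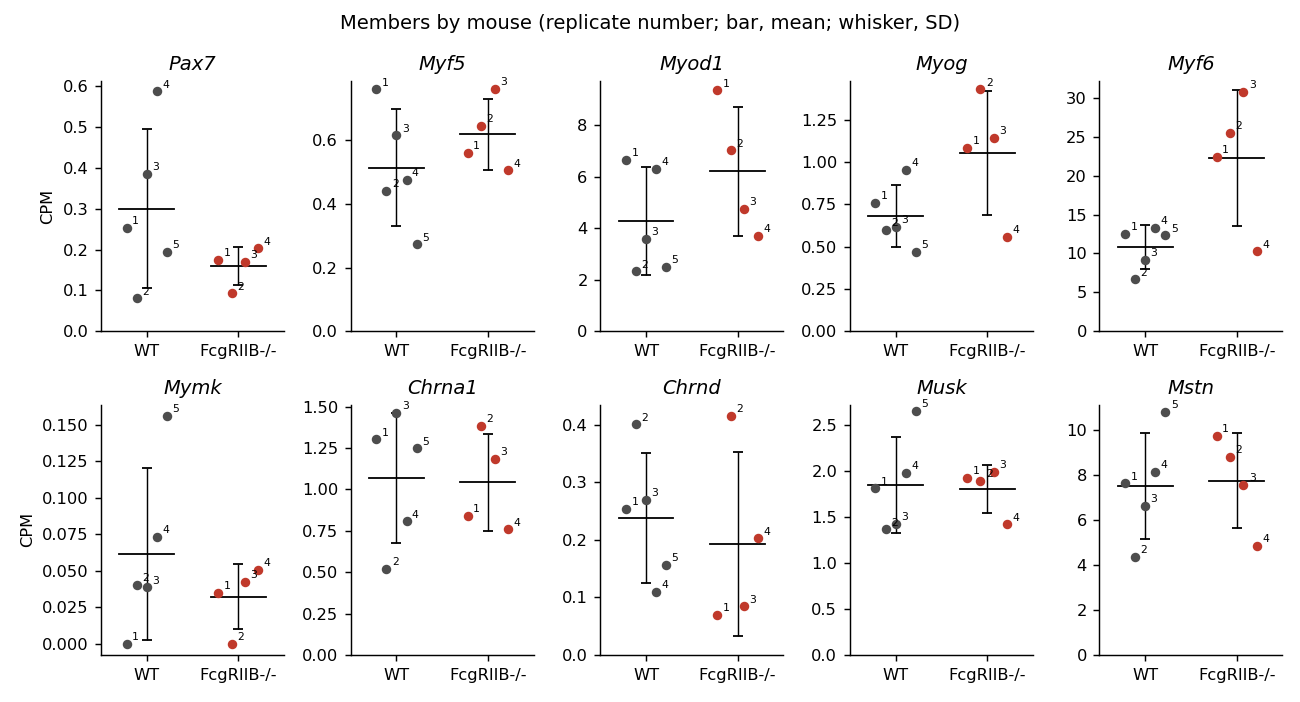
CPM of each member in each mouse on linear axes that include 0, with WT in grey and FcγRIIB-/- in red, the replicate number beside each point, the mean as a bar and the SD as a whisker. *Myf6* is at 6.70 to 13.3 CPM in WT and at 22.4, 25.6, 30.8 and 10.3 CPM in FcγRIIB-/- replicates 1 to 4, and *Musk*, *Chrna1* and *Mstn* overlap between the groups.

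*Myod1*, the determination factor and the second most abundant of the 4 myogenic factors, was at 6.67, 2.33, 3.59, 6.31 and 2.50 CPM in WT replicates 1 to 5 and at 9.36, 7.02, 4.75 and 3.70 CPM in FcγRIIB-/- replicates 1 to 4. FcγRIIB-/- replicates 1 and 2 were above the WT mice and replicates 3 and 4 were among them. Its log2 fold change of 0.54 had a 95% interval of -0.28 to 1.35 (adjusted p = 0.283 by edgeR QL). *Myog*, which encodes myogenin and switches on the differentiation program, had 12 to 26 counts in WT and 31, 31, 27 and 11 counts in FcγRIIB-/- replicates 1 to 4, or 1.09, 1.43, 1.14 and 0.557 CPM. The first 3 were above the highest WT mouse, at 0.954 CPM, and replicate 4 was near the lowest, at 0.468 CPM. How common such a pattern is among all genes was not counted. The log2 fold change of *Myog* was 0.63 (standard error 0.30, 95% interval -0.03 to 1.30, adjusted p = 0.13), and without FcγRIIB-/- replicate 4 it was 0.83 and passed (adjusted p = 0.0446 from the same edgeR test). *Myf5*, which acts earliest of the 4, had between 7 and 21 counts in every library and overlapped between the groups, with a log2 fold change of 0.26 (95% interval -0.41 to 0.94, adjusted p = 0.536).

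*Myf6* therefore held most of the reads of the 4 myogenic factors in each library, between 60.5% and 79.2% of their summed counts in WT and between 67.1% and 82.2% in the libraries labelled FcγRIIB-/-. These ranges overlapped. Per kilobase of exon, the scale on which genes can be compared, the WT level was 8.57 ± 2.21 (SD, n = 5) CPM per kb for *Myf6*, 2.78 ± 0.866 for *Mstn* and 2.30 ± 1.12 for *Myod1*. *Myf6* was above *Mstn* in 9 of 9 mice, whereas *Mstn* was above *Myod1* in 4 of 9, so that the order of these neighbors was not settled. *Musk* (0.489) and *Myog* (0.455) followed, with *Musk* above *Myog* in 2 of 9 mice, and then *Myf5* (0.247) and *Chrna1* (0.244), with *Myf5* the higher in 6 of 9. *Chrnd* (0.0724), *Pax7* (0.0513) and *Mymk* (0.0408) came last. The chromosomal neighbors *Myf5* and *Myf6* thus differed widely in WT, at 0.247 and 8.57 CPM per kb.

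*Pax7*, the satellite cell factor, was seen with 7, 2, 10, 16 and 5 reads across WT replicates 1 to 5 and with 5, 2, 4 and 4 reads across FcγRIIB-/- replicates 1 to 4. In CPM, WT replicates 1, 3 and 4 were above every library labelled FcγRIIB-/- and WT replicate 2 was below them all, so the groups overlapped. The summed counts, scaled to library size, gave a ratio of 0.527 with an exact 95% interval of 0.270 to 0.974 that covers counting error only. With no filter on low counts, edgeR QL gave -0.90 on the log2 scale (adjusted p = 0.263, standard error 0.54). *Mymk*, the myomaker gene expressed in fusing cells, had 8 counts over the 5 WT mice and 3 over the 4 mice labelled FcγRIIB-/-, a ratio of 0.527 with a counting interval of 0.0900 to 2.19. The 0 counts of *Mymk* in WT replicate 1 and FcγRIIB-/- replicate 2 allow levels of up to 0.109 and 0.139 CPM. A difference in *Mymk* was not detectable at this depth. Its partner in fusion, *Mymx*, which encodes myomixer, had between 1 and 7 counts per library and did not pass the filter either.

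Of 27 other genes of satellite cells and myogenesis, 26 were tested, and 2 were higher, 7 were lower and 17 did not pass, where 14.0% of all genes tested were higher and 19.3% lower. The median log2 fold change of the list was -0.10. *Id1*, an inhibitor of basic helix-loop-helix factors, rose by 0.46 on the log2 scale (adjusted p = 0.00565) and *Jam2*, an adhesion molecule, by 0.25 (adjusted p = 0.0182), both by edgeR QL. The largest falls were in *Pax3*, the relative of Pax7 (-1.15), *Megf10*, a receptor of satellite cells that many other cells also carry (-1.14), *Mef2a* and *Mef2d*, partners of the myogenic factors in transcription (-0.88 and -0.53), and *Myof*, which encodes myoferlin (-0.43). *Pax3* lost its call without WT replicate 4 (-1.09, adjusted p = 0.0575), WT replicate 5 (-1.02, 0.056) or FcγRIIB-/- replicate 3 (-1.10, 0.0666), and the others named here passed without any 1 mouse. The *Mef2* and *Megf10* mRNAs are not particular to muscle, and the part of the marrow and epithelial genes that moved in the same libraries was not tested.

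At the neuromuscular junction no tested member passed the test, and the values of both tested genes lay close to 0. *Chrna1*, the alpha subunit that binds acetylcholine, was at 1.30, 0.522, 1.46, 0.808 and 1.25 CPM in WT and 0.841, 1.39, 1.19 and 0.760 CPM in the libraries labelled FcγRIIB-/-. *Musk*, the kinase that organizes the junction, was at 1.81, 1.36, 1.43, 1.98 and 2.65 CPM in WT and 1.93, 1.89, 1.99 and 1.42 CPM in FcγRIIB-/- replicates 1 to 4. Every library labelled FcγRIIB-/- fell within the WT range for both genes. The log2 fold change was -0.04 (95% interval -0.75 to 0.67, adjusted p = 0.938 by edgeR QL) for *Chrna1* and -0.03 (-0.54 to 0.48, adjusted p = 0.936) for *Musk*, so that differences up to these bounds fit the data. Without single mice both values crossed 0, lying between -0.20 and 0.11 for *Chrna1* and between -0.10 and 0.16 for *Musk*. *Chrnd*, the delta subunit, had 3 to 10 counts in WT and 2, 9, 2 and 4 in FcγRIIB-/- replicates 1 to 4, with a ratio of summed counts of 0.770 and a counting interval of 0.400 to 1.44. With no filter its log2 fold change was -0.34 (adjusted p = 0.709 from the same edgeR test).

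Other genes of the junction were called in both directions, as were genes at large. Of 26 listed genes 25 were tested, of which 6 were higher, 6 were lower and 13 did not pass, beside 14.0% higher and 19.3% lower among all genes tested. Their median log2 fold change was -0.06. *Chrnb1*, the beta subunit of the same receptor, was at 8.69, 5.02, 9.45, 6.57 and 6.99 CPM in WT and at 10.7, 13.4, 14.9 and 11.9 CPM in the libraries labelled FcγRIIB-/-. Each of these 4 was above all 5 WT mice, while 29.6% of all genes tested were without overlap between the groups in log2 CPM. The log2 fold change of *Chrnb1* was 0.79 (adjusted p = 0.008 by edgeR QL, standard error 0.18), between 0.70 and 0.91 with 1 mouse left out. The adult subunit gene *Chrne* had a log2 fold change of 0.39 (adjusted p = 0.663) with levels from 0.120 to 1.32 CPM, and the fetal subunit gene *Chrng* had at most 2 counts in any library. *Rapsn*, which encodes the scaffold rapsyn that anchors the receptor, rose by 0.60 (adjusted p = 0.0252), and without FcγRIIB-/- replicate 1 it was 0.43 and did not pass (0.0797). *Dok7*, the activator of MuSK inside the fiber, had 0.80 (adjusted p = 0.0518, and 0.0287 in DESeq2, where it passed) and in edgeR passed without WT replicate 1 (0.95, adjusted p = 0.0423) or WT replicate 5 (0.91, 0.0476).

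The extracellular organizer *Agrn* did not pass (0.20, adjusted p = 0.196), nor did its receptor *Lrp4* (-0.19, adjusted p = 0.0687 by edgeR QL), which passed without FcγRIIB-/- replicate 3 (-0.23, 0.0492). Further junction genes that rose included the ETS factor gene *Etv4* (0.56) and the laminin gene *Lama5* (0.36). *Lama5* lost its call without FcγRIIB-/- replicate 2 (0.34, adjusted p = 0.0562) or 4 (0.29, 0.0657). The largest fall was in *Ache*, acetylcholinesterase, which red cell precursors make as well, from 12.8 ± 2.03 (SD, n = 5) to 3.28 ± 0.955 (SD, n = 4) CPM, a log2 fold change of -1.97 (adjusted p = 2.08e-04). The erythroid genes fell in the same libraries, from a summed 1645 to 1972 CPM in WT to 98.2 to 428 CPM, and their part in the value of *Ache* was not tested. *Sntb2* (-1.15), which encodes a protein of the dystrophin complex, and *Col13a1* (-0.98), a collagen of the junction and of other tissues, also fell. *Utrn*, which encodes utrophin, fell by 0.59 (adjusted p = 0.041) but passed in 1 of 9 fits that each left out 1 mouse. *Erbb3*, a neuregulin receptor that Schwann cells carry, fell by 0.58 (adjusted p = 0.0198), and without FcγRIIB-/- replicate 3 or 4 its adjusted p was 0.0541 and 0.0542.

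*Mstn*, which muscle fibers secrete, was at 7.64, 4.37, 6.63, 8.15 and 10.8 CPM in WT and at 9.74, 8.83, 7.58 and 4.87 CPM in FcγRIIB-/- replicates 1 to 4. All 4 fell within the WT range. The log2 fold change was 0.05 (95% interval -0.52 to 0.61, adjusted p = 0.902 by edgeR QL) and lay between -0.08 and 0.24 with single mice left out. Of 21 other genes of the myostatin and activin axis 20 were tested, and 1 was higher, 3 were lower and 16 did not pass, with a median of -0.02, beside the 14.0% and 19.3% of all genes. The receptor gene *Acvr2b* (0.45, adjusted p = 0.111) and the gene of the antagonist follistatin, *Fst* (-0.15, adjusted p = 0.511), did not pass, though *Acvr2b* passed without WT replicate 3 (0.61, 0.0304). *Inhbb*, an activin subunit gene, rose by 0.55 (adjusted p = 0.0238) and lost its call without FcγRIIB-/- replicate 3 (0.49, 0.066). *Dcn*, which encodes the proteoglycan decorin, fell by 0.43 and the signal transducer gene *Smad2* fell by 0.29. *Tgfbr3* fell by 0.33 and lost its call in 5 of 9 fits without 1 mouse, with an adjusted p of up to 0.0743.

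Genes known to respond to denervation or muscle wasting were also read, since *Myog*, *Chrna1* and *Musk* are known to rise in denervated muscle. Of 16 such genes 15 were tested, with 4 higher, 4 lower and 7 that did not pass, and a median of 0.00, again beside 14.0% higher and 19.3% lower of all genes. *Myh8*, the perinatal myosin that jaw muscles keep into adult life, rose from 241 ± 59.8 (SD, n = 5) to 486 ± 210 (SD, n = 4) CPM (log2 fold change 1.02, adjusted p = 0.0131 by edgeR QL), with all 4 mice above the WT range. Groups without overlap in log2 CPM were found for 29.6% of all genes tested. Relative to the sarcomere genes, *Myh8* (0.23, adjusted p = 0.518) and *Sln* (0.12, adjusted p = 0.787) did not pass. On that scale edgeR QL called *Hdac4* (-1.38, adjusted p = 8.33e-04), *Foxo3* (-1.52, 1.39e-04) and *Ncam1* (-1.10, 0.00698) lower, as it did 47.9% of all genes tested. Which cells of the mandible gave the mRNAs of this list was not tested. With TMM, *Hdac4* (-0.58), *Foxo3* (-0.72) and *Ncam1* (-0.28) fell and passed with any 1 mouse left out. With TMM, *Myh8* also passed in each of these fits, with an adjusted p of up to 0.0277 by edgeR QL. The other calls, given next, were each lost in some of these fits. *Sln* (0.84), which encodes sarcolipin, lost its call in 6 of 9 fits without 1 mouse, *Gadd45a* (0.28) in 4, *Runx1* (0.44) in 3 and *Fbxo30* (-0.35) in 8, with adjusted p of up to 0.17, 0.102, 0.091 and 0.096.

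**Figure D2:**
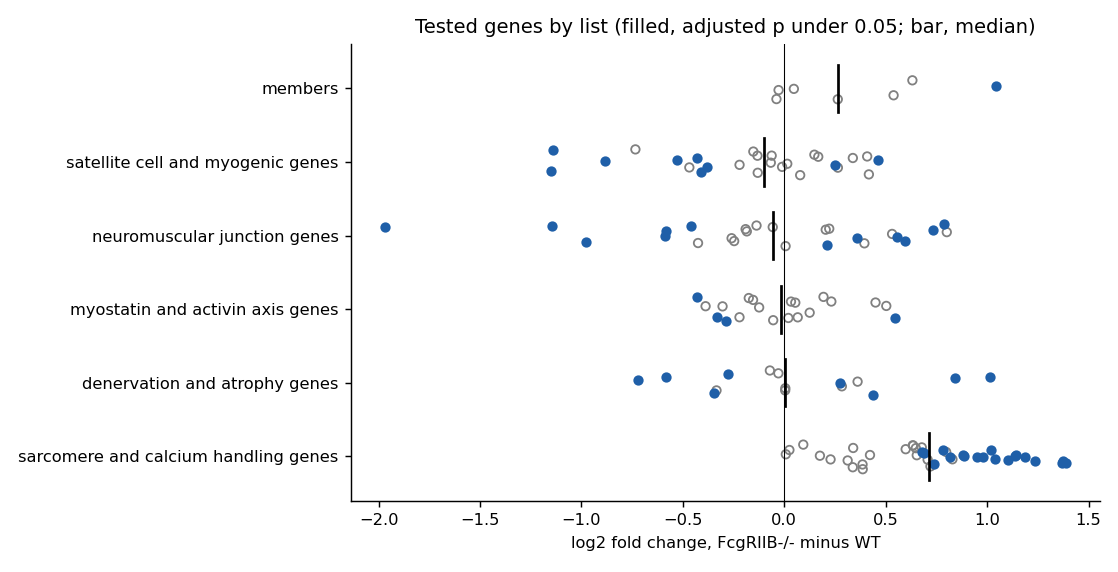
Log2 fold changes, FcγRIIB-/- minus WT, of the tested genes of each list on the horizontal axis, filled where the adjusted p was under 0.05 and open otherwise, with a bar at the median. The median is 0.26 for the members and between -0.10 and 0.00 for the 4 pathway lists, and 0.71 for the sarcomere genes.

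Because sarcomere gene levels differed between the libraries, each member was also set against the 40 sarcomere and calcium handling genes, none of which is a member. The relative level of these genes, scaled to a geometric mean of 1 over the libraries, was 1.08, 0.457, 0.737, 0.937 and 0.929 in WT replicates 1 to 5 and 1.82, 1.08, 1.11 and 1.45 in FcγRIIB-/- replicates 1 to 4. WT replicate 2 was lowest in all 40 sarcomere genes within WT and also lowest in 5 of the 7 tested members. FcγRIIB-/- replicate 4 had the second highest sarcomere level of all mice, yet within its group it was the lowest in 7 of the 7 tested members. By comparison it was the lowest of its group in 6 of the 40 sarcomere genes and in 29.8% of all genes tested. In this mouse the tested members were thus low for its group, while the sarcomere level was high. The untested *Pax7* and *Mymk* were highest of the group there, at 0.203 and 0.0507 CPM on 4 and 1 counts. *Chrnd*, also untested, was at 0.203 CPM, between the other mice of the group.

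**Figure D3:**
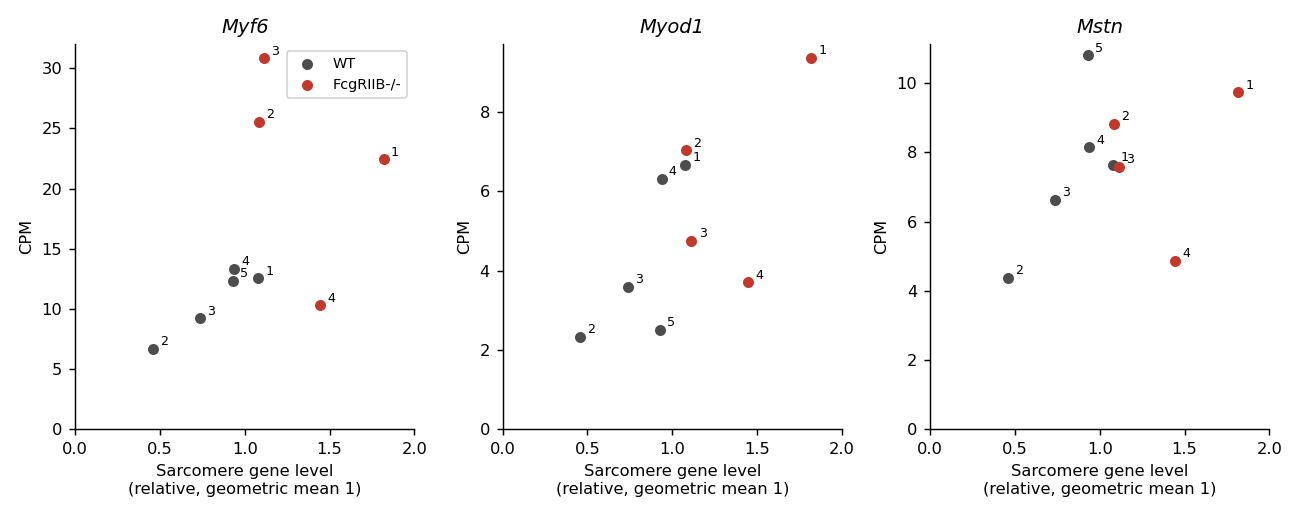
CPM of *Myf6*, *Myod1* and *Mstn* on the vertical axes against the relative sarcomere gene level of each mouse on the horizontal axes, WT in grey, FcγRIIB-/- in red, with replicate numbers. FcγRIIB-/- replicate 4 sits at 1.45 on the horizontal axis with 10.3 CPM of *Myf6*, below replicates 2 and 3, which are at 1.08 and 1.11 with 25.6 and 30.8 CPM.

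With the libraries scaled to the sarcomere genes in place of TMM, edgeR QL called 0 members higher, where 0.116% of all genes tested were higher, and 0 lower, where 47.9% were. At an unadjusted p under 0.05 there were also 0 in each direction, and DESeq2 with the same scaling called 0. On this scale the median of all genes tested was -0.78, since most genes are not muscle genes, and the median of the 7 members was -0.44. *Myf6* per sarcomere mRNA was at a log2 fold change of 0.41 (95% interval -0.26 to 1.09, standard error 0.34, adjusted p = 0.268). In these units it was at 11.6, 14.7, 12.5, 14.2 and 13.3 in WT and at 12.3, 23.6, 27.7 and 7.11 in FcγRIIB-/- replicates 1 to 4, so that 2 mice lay above the WT range, 1 within it and 1 below it. At least 1 of the 4 was below the WT range in 94.6% of all genes tested. *Myog* (-0.06) and *Myod1* (-0.15) were near 0 on this scale, whereas with TMM both were positive, and *Myf5* was at -0.44.

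*Mstn* (-0.64, 95% interval -1.36 to 0.09, adjusted p = 0.124), *Chrna1* (-0.67, -1.57 to 0.23, 0.186) and *Musk* (-0.73, -1.59 to 0.13, 0.134) were the lowest of the tested members against the sarcomere genes, in the same edgeR test, and none passed. For *Mstn* 3 of 4 mice labelled FcγRIIB-/- lay below the WT range on this scale, and for *Chrna1* and *Musk* 2 of 4 did. Of all 16329 genes tested, 55.3% had at least 3 of the 4 and 81.9% at least 2 of the 4 below the WT range in these units, and the log2 fold changes of the 3 members were not lower than the median of all genes, -0.78. *Pax7*, which was not tested, was at 0.176 to 0.627 in WT and at 0.0854 to 0.152 in the libraries labelled FcγRIIB-/- in these units, all 4 below the WT mice, on 2 to 5 counts each and with the lowest WT value resting on 2 counts. The same held for 37.2% of all genes tested, so this is not a result about *Pax7*. Of the partners, *Chrnb1* (0.10), *Dok7* (0.15) and *Rapsn* (-0.17) were close to 0 relative to the sarcomere genes and did not pass (adjusted p = 0.797, 0.756 and 0.681). *Agrn* (-0.58), *Acvr2b* (-0.32) and *Chrne* (-0.31) did not pass either (adjusted p = 0.117, 0.462 and 0.556). *Lrp4* (-0.96, adjusted p = 0.0167) and *Fst* (-0.95, adjusted p = 0.0194) were called lower by edgeR QL, as were 47.9% of all genes tested. The standard error of each tested member was larger with this scaling than with TMM.

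**Figure D4:**
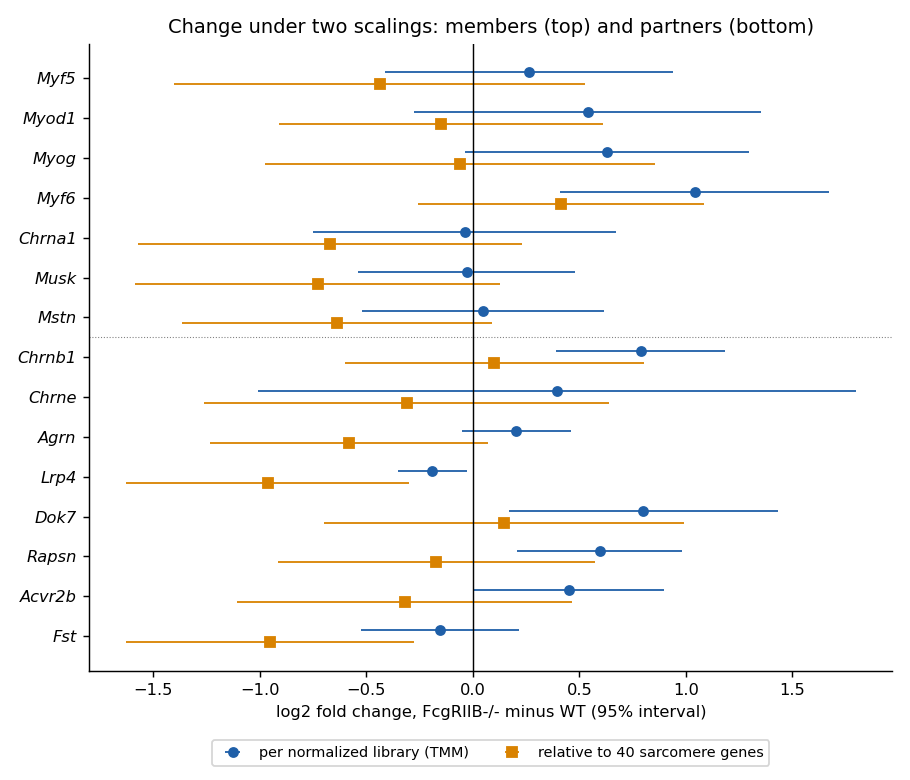
Log2 fold changes, FcγRIIB-/- minus WT, with 95% intervals for the 7 tested members above the dotted line and 8 partner genes below it, in blue for TMM-normalized libraries and in orange relative to the 40 sarcomere genes. *Myf6* is at 1.04 in blue, with an interval above 0, and at 0.41 in orange, with an interval that crosses 0.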

How the data were processed

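Whole mandibles including teeth were pulverized, and stranded poly(A) libraries of 5 WT and 4 FcγRIIB-/- mice were sequenced as single-end reads. Per the study's methods and the submitters' processing notes, Trim Galore was used for trimming, HISAT 02.1.0 for alignment to mm10 and featureCounts for gene quantification. The authors deposited raw counts. The annotation and strand setting are not given in the sources used here. The table held 1 further column that matches no sample and was not used. Samples were grouped by their titles.

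From the counts, edgeR 4.0.16 in R 4.3.3 was run on all genes with filterByExpr (minimum count 10), TMM and the quasi-likelihood test of genotype without covariates. p-values were adjusted by Benjamini-Hochberg over 16329 genes at 0.05. Standard errors were derived from the fold change and its F statistic, and log2 CPM used a prior count of 2. The same test was run with libraries scaled by the median of ratios over 40 sarcomere genes. On simulated data with 200 changed genes, recovery of these changes was scored for the TMM fit and for DESeq2. For the sarcomere-scaled fit, only its calls on simulated muscle genes and the error of its scaling factor were scored. DESeq2 1.42.0 was an alternative, beside other normalization, filters, thresholds, a replicate block and leaving out each mouse. Replicates of the same group were compared for near-identical counts, and every such pair differed by more than sampling noise.

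The members and gene lists were chosen with earlier results of these data known. Genes named are the members, fixed partners and up to 5 genes with the largest change per list and direction among those past the threshold. A gene that this rule names is not reported here. Totals of 21453880 to 28991631 counts per library limit genes with few reads, and an absent count allows up to 3 counts. Intervals of 95% on count ratios and such limits cover counting error only.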

Additional observations from a re-analysis of the deposited data

Results flagged for a closer look

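Within groups of 4 or 5 mice, 11 of 96 sets of values had a highest or lowest mouse that stood apart by Dixon's criterion at 95%, where chance flags about 1 in 20. Among the members this was *Musk* in FcγRIIB-/- replicate 4, at 1.42 CPM with the next mouse at 1.89, the same mouse that was lowest in the other tested members. *Fcgr2b* stood apart in WT replicate 2 (38.3 CPM) and in FcγRIIB-/- replicate 4 (32.1 CPM). In WT, *Lrp4* stood apart in replicate 3 (167 CPM), and *Megf10* and *Myof* in replicate 5 (31.0 and 228 CPM). In the libraries labelled FcγRIIB-/-, *Sntb2* stood apart in replicate 4 (8.67 CPM), *Col13a1* in replicate 1 (27.8 CPM), *Utrn* and *Sln* in replicate 2 (98.4 and 6.93 CPM) and *Inhbb* in replicate 3 (105 CPM).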

How the results depend on the processing

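With DESeq2 size factors in edgeR, and with DESeq2's Wald test, the number of called members and of called genes in each list stayed within 1.5 times the main number. With no filter on low counts, the denervation list had 2 higher genes in place of 4. At an adjusted p under 0.01 the higher and lower numbers were 0 higher members, 1 and 4 in the satellite cell list, 3 higher in the junction list, 0 and 1 in the myostatin list, and 0 and 2 in the denervation list. With a log2 fold change of at least 1 they were 0 and 2, 0 and 2, 0 and 0, and 1 and 0 in these 4 lists. Without single mice, called members were between 0 and 2, the higher genes of the myostatin list between 0 (without FcγRIIB-/- replicate 3) and 2 (without WT replicate 3), and those of the denervation list between 1 (without FcγRIIB-/- replicate 2) and 5, with 2 without WT replicate 1, WT replicate 5 or FcγRIIB-/- replicate 3. Values near 0 changed sign in some of these fits, with ranges of -0.20 to 0.11 for *Chrna1*, -0.10 to 0.16 for *Musk*, -0.082 to 0.24 for *Mstn* and -0.019 to 0.76 for *Chrne*, and relative to the sarcomere genes -0.35 to 0.039 for *Myod1* and -0.36 to 0.16 for *Myog*. The number of non-overlapping members was 0 with a prior count of 0.5 as well. The cause of these shifts was not tested.

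The replicate numbers are shared by different animals, and same-numbered mice did not deviate together, with correlations of 0.0969, 0.0276, -0.114 and -0.0739 for replicates 1 to 4. With the replicate block, 0 members were called higher (*Myf6* log2 fold change 1.05, adjusted p = 0.0707 in edgeR), *Chrna1* and *Musk* were at 0.049 and 0.14, the denervation list had 2 higher genes, and 1 member was called lower relative to the sarcomere genes (*Mstn*, -0.59, adjusted p = 0.022). For the genes named in the report, the alternatives other than leaving out a mouse kept direction and call in 158 cases with TMM-scaled libraries, lost the call in 11, gained it in 1 and changed sign in 2. Relative to the sarcomere genes they kept both in 27 cases and gained a call in 1, that of *Mstn*. *Pax7*, *Mymk* and *Chrnd* rest on at most 16 counts per library, so that differences in them are limited by depth.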
